A study of Mus musculus with 6 samples.

Results

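Hspb7, also called cvHsp, is a small heat shock protein found in striated muscle and heart, and its signal was followed here from dividing muscle precursor cells to differentiated muscle cells. On the array used, 1 of 50 gene probes had a transcript accession that RefSeq assigns to mouse Hspb7 (NM_013868, probe A_51_P346445). The other features included 14236 circular RNA probes, whose targets are closed RNA rings. The Hspb7 probe was printed as 10 spots at scattered places on each array, 60 spots over the 6 arrays. The gene was chosen with its difference between the states already known, so its levels and that difference are described without a test.

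All samples came from C2C12, a cloned mouse line of muscle precursor cells. The 3 myoblast cultures were kept in high-glucose DMEM with 10% fetal bovine serum, penicillin and streptomycin. The 3 myotube cultures were moved near confluence to DMEM with 2% horse serum, in which the cells leave the cell cycle and fuse into multinucleate fibres. No source used here gives the time in horse serum, and fused cultures usually keep some unfused cells. Each group comprised 3 independent experiments per the series' design, and each sample gave total RNA, Cy3 label and 1 one-colour array.

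Small heat shock proteins share an alpha-crystallin domain and hold unfolding proteins in solution without using ATP. Several of them, Hspb7 among them, are enriched in striated muscle, where contraction strains the filaments and the proteins that anchor them. Hspb7 binds the actin cross-linker filamin C, and mouse hearts that lack it develop abnormal thin filaments.

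The 250 bases before the RefSeq start of Hspb7 are shown because they are the regulatory sequence nearest to the transcript that the probe reads. No measurement of these arrays was made at that sequence. It lies at chr4:141420529-141420778 on the plus strand of GRCm38.p6, a later build than the mm9 named in the array headers. Capitals mark the E-box, the motif CANNTG to which myogenic factors such as MyoD bind.
Hspb7 upstream sequence: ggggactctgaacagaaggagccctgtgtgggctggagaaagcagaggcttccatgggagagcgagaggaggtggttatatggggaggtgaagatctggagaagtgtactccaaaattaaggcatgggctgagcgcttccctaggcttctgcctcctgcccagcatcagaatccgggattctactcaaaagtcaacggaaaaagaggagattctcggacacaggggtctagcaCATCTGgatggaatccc
The sequence held 1 E-box, CATCTG, whose first base is 17 bases before the start. Of 32851 windows of the same length in the RefSeq promoter table, 66.2% held at least 1 E-box. On either strand, the window held no heat shock element core (GAANNTTC or TTCNNGAA, in 12.8% of windows), no MEF2 site (in 2.92%) and no CArG box (in 1.47%). No overlap between matches arose, and a match or its lack says nothing here about binding.

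In processed signal, Hspb7 was several-fold higher on every myotube array than on any myoblast array. The processed signal, which is the scanner software's linear intensity after background subtraction and spatial detrending, had a geometric mean over the spots of 9.12, 9.78 and 15.5 on the arrays of myoblasts 1, 2 and 3. It was 71.5, 75.8 and 162 on those of myotubes 1, 2 and 3. The lowest myotube array thus stood 4.61-fold above the highest myoblast array. Myoblast arrays averaged 11.5 ± 3.52 and myotube arrays 103 ± 51.3 (SD, n = 3 each). No source used here says whether linear RNA was digested ahead of labelling, so the values are signals of the probe and not known amounts of Hspb7 messenger RNA. In such bulk cultures a greater share of cells with the transcript and more transcript per cell cannot be told apart.

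**Figure D1:**
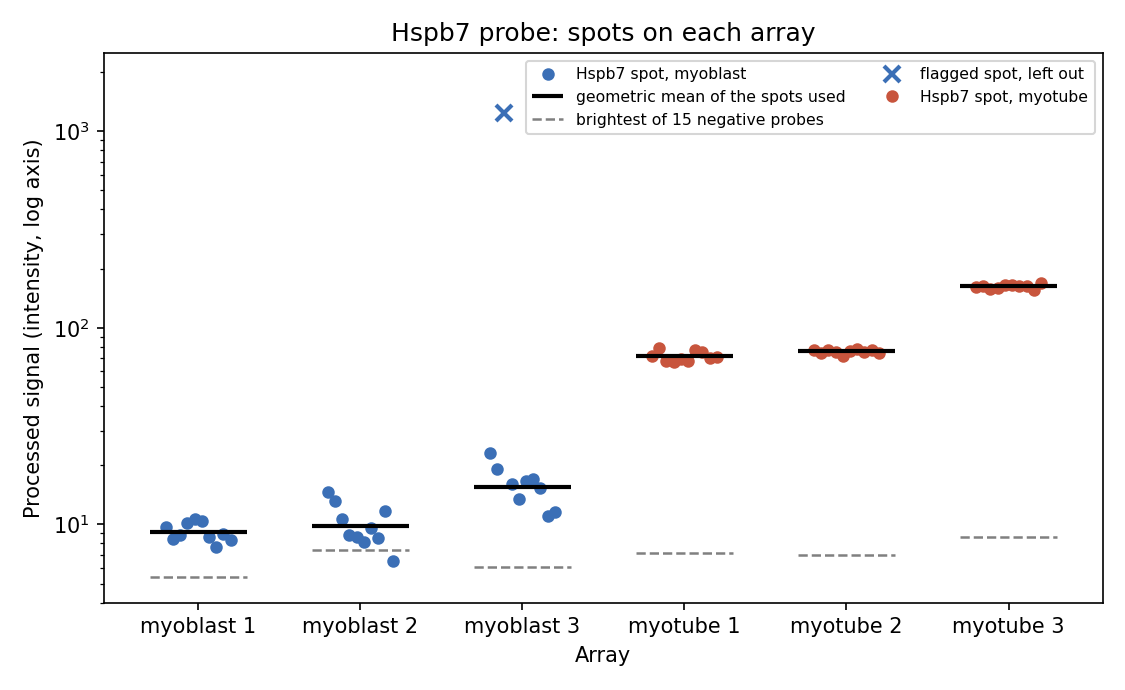
Processed signal (intensity, log axis) of the 10 Hspb7 spots on each of the 6 arrays, with black lines for the geometric mean of the spots used, from 9.12 to 162, and dashed lines for the brightest of 15 negative probes. All myotube spots lie above all myoblast spots except the flagged spot of myoblast 3, drawn as a cross at 1231.

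Every one of the 60 Hspb7 spots was well above background by the scanner software's flag, and none was saturated. The local background around the spots lay between 10 and 15 in scanner units over all 60 spots. Its mean per array was 12.4 ± 0.465 (SD, n = 3) for myoblasts against 11.8 ± 0.328 (SD, n = 3) for myotubes, a difference that runs opposite to that of the spots. The median pixel of a spot, before any subtraction, lay between 22 and 34 on the myoblast arrays with the flagged spot left out. On the arrays of myotubes 1 and 2 it lay between 74 and 93, and on that of myotube 3 between 171 and 187. In myoblasts the background was thus a large part of the raw reading of an Hspb7 spot, and in myotubes a small one.

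The probe's myoblast signal was low on the scale of the array. The dimmest probe that counted as above background had a processed signal between 4.30 and 5.01, depending on the array. Of 15 negative probes, which are designed to match no transcript, 1 was above background on each array. The brightest negative probe read 5.40, 7.40 and 6.09 on the arrays of myoblasts 1, 2 and 3, where Hspb7 read 9.12, 9.78 and 15.5. It read 7.13, 7.01 and 8.58 on those of myotubes 1, 2 and 3. The brightest negative probe thus lay between 5.40 and 8.58 over the 6 arrays, and Hspb7 came close to it in myoblasts only. The median negative probe was dimmer than Hspb7 in both states, at 1.02 to 1.12 depending on the array.

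Spots of 1 array showed how well a single reading was repeated. The myoblast 1 spots ran from 7.65 through a median of 8.88 to 10.7, the myoblast 2 spots from 6.52 through 9.24 to 14.6, and the 9 unflagged myoblast 3 spots from 11.0 through 16.1 to 23.0. The ranges of myoblasts 1 and 2 overlapped, as did those of myoblasts 2 and 3, while the lowest unflagged spot of myoblast 3 was just above the highest of myoblast 1. The myotube 1 spots ran from 66.9 through 70.5 to 79.3, the myotube 2 spots from 72.2 through 76.0 to 78.2, and the myotube 3 spots from 156 through 163 to 169. Myotubes 1 and 2 overlapped, and all 10 positions were brighter on the myotube 3 array than on either. Spots of 1 array share its RNA and are technical repeats, so the states were compared over arrays only.

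The spots agreed more closely where they were bright. Their coefficient of variation was 10.9%, 24.7% and 23.6% on the arrays of myoblasts 1, 2 and 3, against 6.02%, 2.45% and 2.34% on those of myotubes 1, 2 and 3. The scanner software's own error estimate for a spot, as a median over the spots, was 14.8%, 14.6% and 11.7% of the signal on the myoblast arrays and 10.0% to 10.1% on the myotube arrays. The spots of myoblasts 2 and 3 thus scattered more than that estimate, and those of all 3 myotube arrays scattered less. For myoblasts 2 and 3, but not for myoblast 1, part of the scatter came with the multiplicative step of the spatial detrending. Before that step the coefficients were 11.1%, 16.9% and 16.7% for myoblasts 1, 2 and 3. They were 7.74%, 2.45% and 2.58% for myotubes 1, 2 and 3. On the log2 scale the standard error of an array's mean over its spots was at most 0.11. The SD between the arrays of a group, after the scaling given next, was 0.53 in both groups. The spread between arrays, and not that between spots, therefore set the precision of each group mean. Each culture had 1 array, so differences between cultures cannot be told apart from those of labelling, hybridization or slide position.

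One Hspb7 spot carried outlier flags of its own signal, on a myoblast array. At row 28 and column 40 of the myoblast 3 array the processed signal was 1231, with an error estimate of 35.8%, and the software marked the spot as non-uniform and as an outlier of its population. Its median pixel was only 38.5 over a local background of 13.0, where the other Hspb7 spots of that array had median pixels of up to 34.0. At the same place the arrays of myoblasts 1 and 2 read 8.81 and 10.7. The spot was left out. The local background of 1 other spot, at row 47 of the myotube 1 array, was marked as an outlier at 14.0, and that spot, with a processed signal of 69.8, was kept. With the flagged spot of myoblast 3 kept, the geometric mean of that array would have been 24.0 in place of 15.5. Its plain mean would have been 137, above the Hspb7 values of myotubes 1 and 2. With the flags ignored and plain means taken, the difference between the states was 1.51 on the log2 scale and the groups overlapped.

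Myotube arrays were brighter as a whole, so signals were also read against each array. The 75th percentile of the processed signal over all non-control probes was 33.2, 36.4 and 30.2 on the arrays of myoblasts 1, 2 and 3 and 37.6, 53.3 and 55.0 on those of myotubes 1, 2 and 3. Relative to that percentile, Hspb7 stood at -1.87, -1.90 and -0.96 on the log2 scale in myoblasts 1, 2 and 3, below the percentile on each array. In myotubes 1, 2 and 3 it stood at 0.93, 0.51 and 1.56, above the percentile on each array. As a share of the percentile these levels were 27.4%, 26.9% and 51.4% in myoblasts and 190%, 142% and 295% in myotubes.

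The scaled difference between the states was 2.57 on the log2 scale (SE 0.43 from the spread over 3 arrays a group), or 5.95-fold. Myoblasts averaged -1.57 ± 0.53 and myotubes 1.00 ± 0.53 (SD, n = 3 each). The 9 differences between single myotube and single myoblast arrays ran from 1.47 to 3.46, so each was at least 2.76-fold and at most 11.0-fold. Without scaling the difference was 3.10, or 8.60-fold. The median over all tested probes, circular RNA probes included, then shifted by 0.54 the same way. Of 26 gene probes that could be tested, 10 (38.5%) passed the threshold of limma, an adjusted p under 0.05, and Hspb7, counted among them, was chosen from this comparison. For 12 of the 26 (46.2%), Hspb7 again included, no myotube array fell within the range of the myoblast arrays or the reverse. Over the 26 the median difference was -0.20, from -2.03 up to 2.57, the value of Hspb7 itself.

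The order of the arrays depended in part on the scaling. Before scaling, the order of Hspb7 from lowest to highest was myoblast 1, myoblast 2, myoblast 3, myotube 1, myotube 2 and myotube 3. After it, myoblast 2 was the lowest by 0.03 below myoblast 1, and myotube 2 came below myotube 1 by 0.42. Myoblasts 1 and 2 did not differ beyond their spots in either form. Myotubes 1 and 2 overlapped before scaling and were apart after it, with myotube 1 the higher at all 10 positions. Myoblast 3 stood 0.91 above myoblast 1, and myotube 3 stood 0.63 above myotube 1 and 1.05 above myotube 2. The step from myoblast 3 to myotube 2, the closest pair across the states, was 1.47.

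Hspb7 was higher in myotubes at each of the 10 places on the array. The position-wise differences on the scaled log2 scale ran from 2.18 at row 7 to 2.96 at row 179, with a median of 2.61. At every position the lowest myotube spot exceeded the highest unflagged myoblast spot. At row 7 the geometric means were 14.8 in myoblasts and 96.7 in myotubes, and at row 179 they were 8.55 and 96.1. In the processed signal the myotube level was thus alike at these rows. Before the multiplicative step of the detrending, these rows read 59.7 and 73.7 on the myotube 1 array. They read 77.4 and 74.1 on that of myotube 2 and 164 and 170 on that of myotube 3. The smaller difference at the top came, in the processed signal, with a higher myoblast reading there.

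This trend along the array was seen on the myoblast arrays. Before the multiplicative step of the software's spatial detrending it was present for myoblasts 2 and 3 and ran the other way for myoblast 1. Spearman correlations between a spot's row and its processed signal were -0.35 and -0.65 over the 10 spots of myoblasts 1 and 2 and -0.78 over the 9 of myoblast 3. On the myotube arrays they were 0.05, -0.14 and 0.28 over 10 spots each. Before the multiplicative step the myoblast correlations were 0.44, -0.37 and -0.78. Within an array these spots share RNA, slide and scan, so the correlations describe places on the slide and not samples. The multiplicative step raised or lowered single Hspb7 spots by factors from 0.88 to 1.28 on the myoblast arrays and from 0.93 to 1.21 on that of myotube 1. It left the spots of myotube 2 as they were and moved those of myotube 3 by factors from 0.96 to 1.03. With the signal before that step the difference between the states was 2.59, against 2.57 after it.

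**Figure D2:**
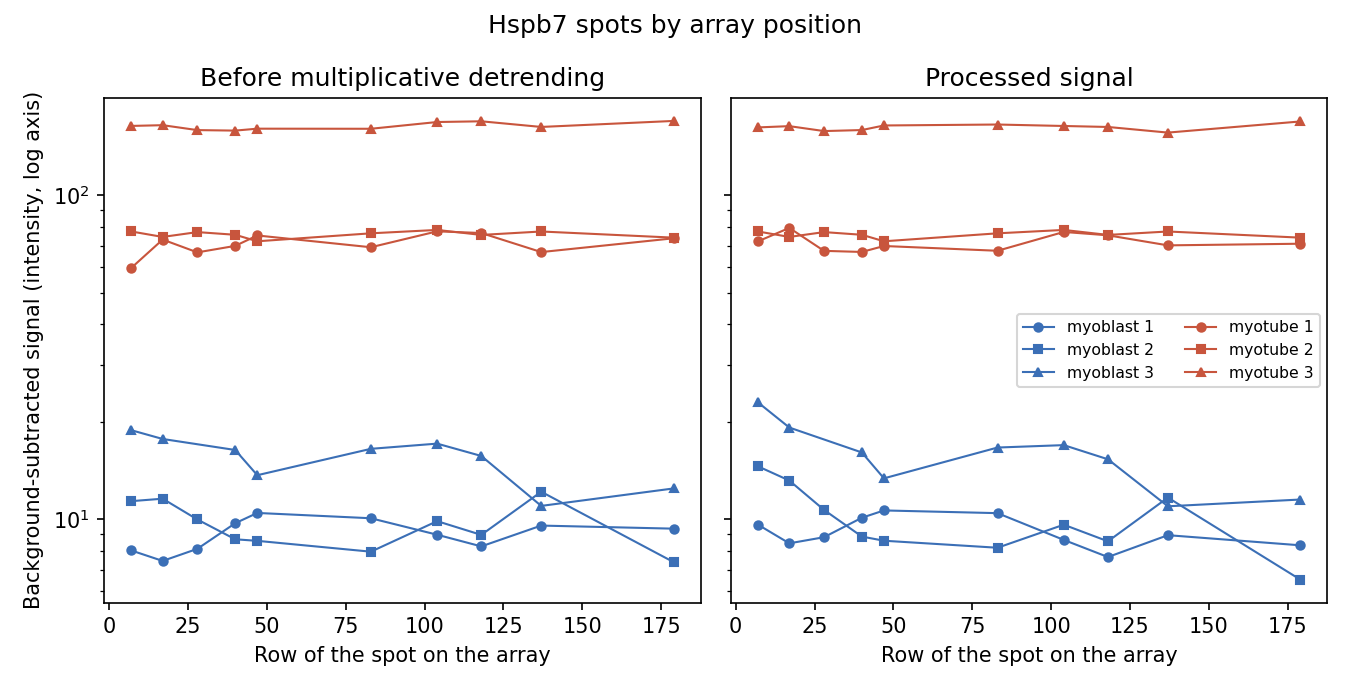
Background-subtracted signal (intensity, log axis) of each unflagged Hspb7 spot against its row on the array, before the multiplicative detrending (left) and after it (right), for 3 myoblast and 3 myotube arrays. In the right panel the lines of myoblasts 2 and 3 are highest at row 7, at 14.6 and 23.0, and in both panels the groups are apart at all 10 positions.

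Slide row, read from the array position code in the scanner headers whose first digit was taken as the row, moved with the states in part. By that reading the arrays of all myoblasts and of myotube 1 lay in row 1, and those of myotubes 2 and 3 in row 2. Within row 1, myotube 1 stood 2.50 above the mean of the 3 myoblast arrays on the log2 scale, and the estimate with slide row as a block is the same number, since it rests on that array alone.

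No other small heat shock protein was among the named gene probes. Of 11 small heat shock proteins looked up, Hspb7 was the only one with a probe. None of 20 other chaperones and their regulators had one, among them Bag3 and Hsf1, and neither did any of 30 genes of the sarcomere and of the neighbourhood of Hspb7, among them the filamin gene Flnc. The markers of myogenic cells, myotubes, heart muscle and fibroblasts had no probe either, so the labelled states could not be set against their defining genes.

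Other probes were ranked by how closely their course over the 6 arrays followed that of Hspb7, as the mean absolute difference between log2 profiles that were each set to a mean of 0. Among 25 gene probes the closest were Olfr1307 at 0.42, Duox1 at 0.55 and the transcript ENSMUST00000062524 at 0.82. The transcript was above background on all 6 arrays and had a log2 difference of 0.93. Olfr1307 is an olfactory receptor gene of a family with closely similar members, so which gene its probe read is uncertain. Its processed signal was 6.32, 3.79 and 3.38 in myoblasts, where 1 of 3 arrays was above background, and 22.0, 26.3 and 39.3 in myotubes, so its place in the ranking rests in part on readings within the background. Duox1 encodes an oxidase that makes hydrogen peroxide. Its signal was not well above background on any myoblast array, at 2.10, 2.80 and 2.21, and was 6.49, 9.57 and 14.4 in myotubes, which gives at least 1.51-fold. Like Hspb7, these 3 gene probes read highest on the myotube 3 array. Unlike Hspb7, whose highest myoblast array was myoblast 3, Olfr1307 was highest on myoblast 1 and the other two on myoblast 2. After normexp background correction the log2 differences of Olfr1307, Duox1 and the transcript were 0.25, -0.059 and 0.11, so little of them was left and the direction of Duox1 was not kept.

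The circular RNA probes closest to Hspb7 by the same measure were of unequal weight. Among 9325 compared, the closest were ASCRP4005520 at 0.18, ASCRP4002341 at 0.18 and ASCRP4004318 at 0.22. They are the nearest of that many candidates by choice, and what these probes target is not given in the files used here. ASCRP4004318 was above background on all 6 arrays, with a processed signal of 52.0, 55.4 and 83.2 in myoblasts and 330, 678 and 780 in myotubes, a log2 difference of 2.64. As for Hspb7, its highest myoblast array was myoblast 3 and its highest myotube array was myotube 3. After scaling, though, it was higher on myotube 2 than on myotube 1 (3.67 against 3.13), while Hspb7 was lower there (0.51 against 0.93). ASCRP4002341 was above background on 1 of 3 myoblast arrays and ASCRP4005520 on none, so the closeness of both rests on readings within the background. No difference in the main setting is given for these 2 probes, and their values in other settings rest on such readings too. ASCRP4005520 was at least 1.19-fold higher in myotubes. After normexp correction the log2 differences were 2.23 for ASCRP4004318, 0.53 for ASCRP4002341 and 0.0092 for ASCRP4005520. Among only the 7697 circular RNA probes above background on all 6 arrays, ASCRP4004318 was the closest, and among the 19 such gene probes ENSMUST00000062524 was. In the authors' deposited log2 values, which hold circular RNA probes and no gene probe, the differences of ASCRP4004318, ASCRP4002341 and ASCRP4005520 were 2.57, 1.43 and 0.65.

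**Figure D3:**
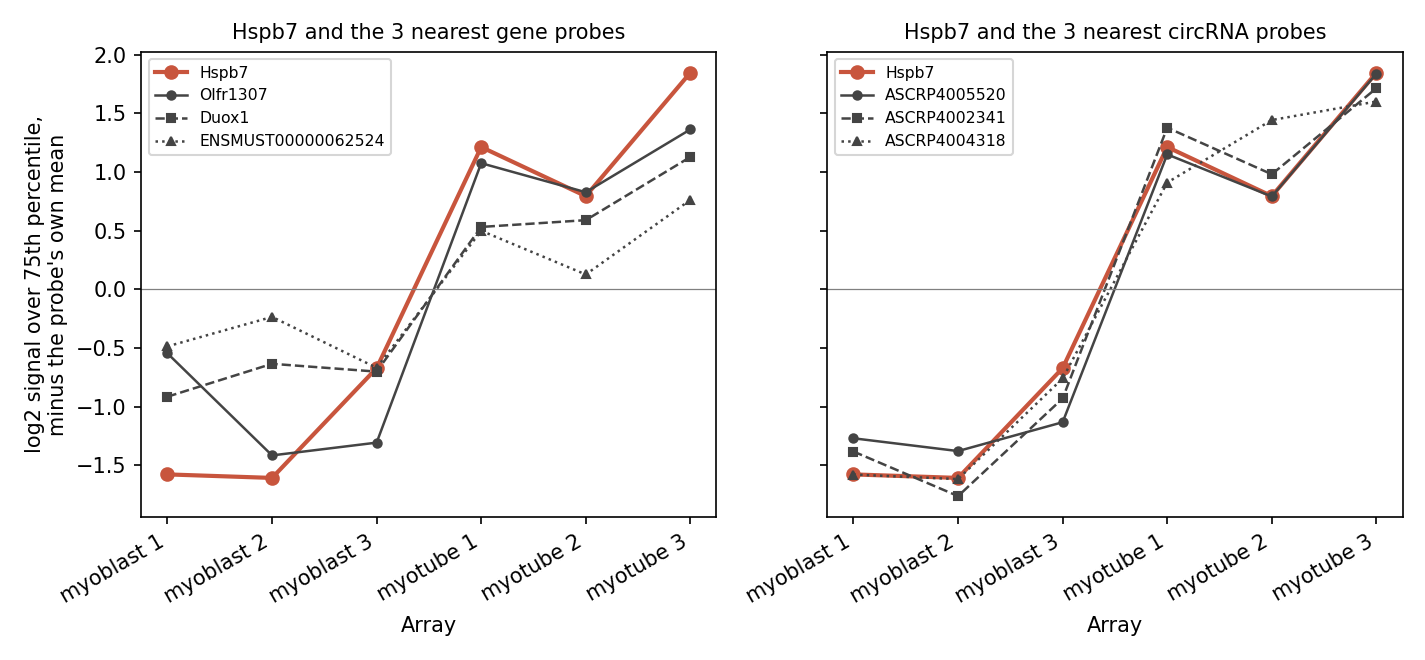
Log2 signal over each array's 75th percentile, minus the probe's own mean, on the 6 arrays for Hspb7 with its 3 closest gene probes (left) and its 3 closest circular RNA probes (right). The circular RNA probes lie within a mean absolute difference of 0.22 of Hspb7, and most of the probes drawn were within the background on some or all myoblast arrays (Olfr1307, Duox1, ASCRP4005520 and ASCRP4002341).

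The direction of the Hspb7 difference was the same under the 24 alternatives tried. Its size moved with the treatment of background, with some of the scalings and with the flagged spot kept in a plain mean. Flagged spots kept gave 2.36 in the log2 mean, 2.58 in the median and 1.51 in the plain mean. With the median spot signal and no background subtraction the log2 difference was 1.69, and after normexp correction with an offset of 50, which draws dim values together, it was 0.98. The median spot signal minus the local background gave 2.32. Quantile normalization, median scaling and the 75th percentile over probes above background gave 2.55, 2.49 and 2.60. Scaling to the other gene probes gave 3.27, the highest value, and no scaling 3.10. Leaving out single arrays gave values from 2.29 without myotube 3 to 2.88 without myoblast 3. The log2 gap between the lowest myotube and the highest myoblast array moved as well, from 1.47 in the main setting. It was 0.54 after normexp correction, 0.97 with no background subtraction and 0.83 with flagged spots kept in the log2 mean. Without scaling it was 2.20, and with the other gene probes as the scale 2.49.

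**Figure D4:**
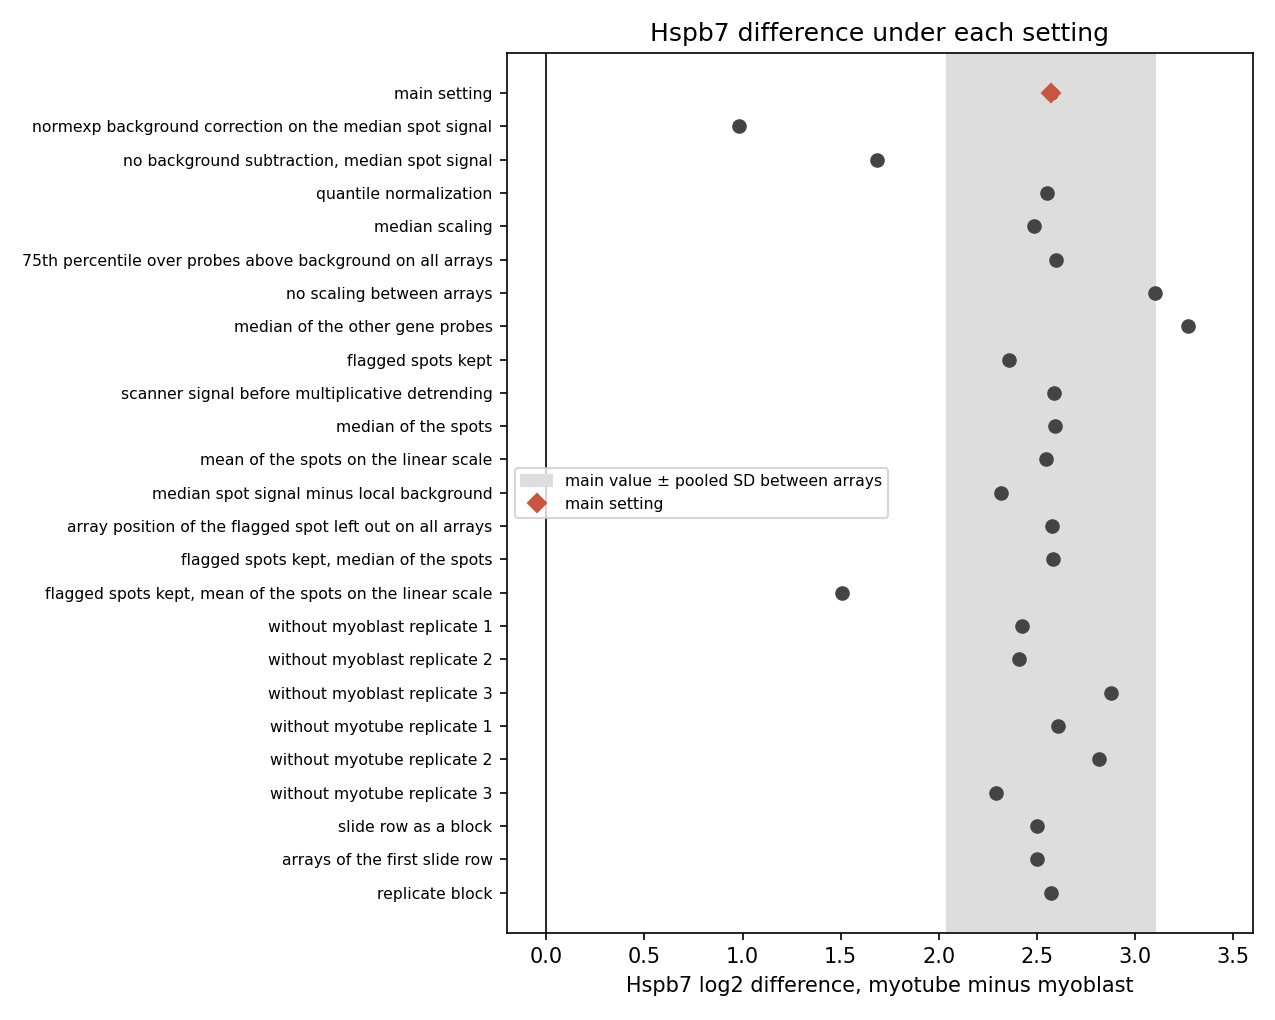
Hspb7 log2 difference, myotube minus myoblast, under the main setting (diamond, 2.57) and 24 alternatives (points), with a grey band for the main value plus and minus the pooled SD between arrays of 0.53. All points lie above 0, and those without background subtraction, with normexp correction or with the flagged spot in a plain mean lie farthest below the band.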

How the data were processed

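Each array was deposited as a scanner table (per the file headers, Feature Extraction 11.0.1.1). Its processed signal, its error and its spot and background columns are deposited intensities on a linear scale, with no scaling between arrays. The authors' deposited value table holds log2 values of 11128 circular RNA probes, made in a way not given in the sources used here, and was used only for the circular RNA probes named. Groups came from the sample titles. Spots flagged as non-uniform or as population outliers were left out (34 to 72 non-control spots an array), the spots of a probe were averaged on the log2 scale, and each array's 75th percentile over non-control probes was subtracted. A probe counted as above background where at least 50% of its spots did. Gene probes above background on all 3 arrays of a group were fitted with limma 3.58.1 in R 4.3.3 (lmFit, eBayes, 2-sided, Benjamini-Hochberg, threshold 0.05). That procedure was tested on simulated data of a larger set of probes, and not on a set as small as these gene probes. Of 50 gene probes, 44 received a symbol through the RefSeq table of GRCm38.p6. An "at least" fold takes for each dim array its lowest signal above background, or the signal of the probe where that is higher. The mean spot signal is not a column of the files, so alternatives that named it used the median. Named were Hspb7, genes of the fixed lists with a probe, and the 3 closest gene and circular RNA probes by profile. Bag3, Hsf1 and Flnc stand only as examples of genes with no probe. The gene and the lists were chosen with earlier results of these data known. The number of arrays limits the precision.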

Additional observations from a re-analysis of the deposited data

How the results depend on the processing

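The Hspb7 difference of 2.57 kept its sign under all 24 alternatives and stayed within 1 pooled SD between arrays (0.53) under 19 of them. The others were normexp correction (0.98), no background subtraction (1.69), no scaling (3.10), scaling to the median of the other gene probes (3.27), and flagged spots kept in a plain mean (1.51). Leaving out single arrays gave 2.29 to 2.88. The number of gene probes called was 10, and 8 to 10 with single arrays left out. With the other gene probes as the scale it was 16, of which 13 were higher in myotubes against 5 of 10 before. The share higher was 50% in the main setting, 28.6% (2 of 7) after normexp correction or with no background subtraction, 66.7% (6 of 9) without scaling and 81.2% with the other gene probes as the scale. Without scaling and with the gene probes as the scale, the median over all tested probes, circular RNA probes included, shifted by 0.54 and 0.71. The difference of Duox1 changed sign after normexp correction, to -0.059, and those of Olfr1307, ENSMUST00000062524, ASCRP4002341 and ASCRP4005520 were then 0.25, 0.11, 0.53 and 0.0092. With no background subtraction these 4 were 0.74, 0.36, 1.14 and 0.27, and Duox1 was at 0.14. ASCRP4004318 had 2.23 and 2.59. Causes were not tested. With the replicate number as a block the Hspb7 difference was 2.57 and 8 gene probes were called. Same-numbered arrays had correlations of -0.04, 0.03 and -0.11 over 7737 probes, and 0 of 3 myoblast arrays correlated best with the myotube array of its own number. With 3 arrays a group, such correlations cannot tell whether same-numbered cultures were paired. Some settings were added after the data were seen. They were the comparison of profiles over probes above background on all arrays and the signal before the multiplicative detrending. Also added were the position of the flagged spot left out and the flagged spot kept (by median or plain mean).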
